A study of Mus musculus and Rattus norvegicus with 30 samples.

Results

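The MHC class I antigen presentation genes are described here in dorsal root ganglion (DRG), the cluster of sensory neuron cell bodies, satellite glia and resident immune cells beside the spinal cord. The members were chosen by symbol: the heavy chain genes H2-K1, H2-D1 and H2-T23, the light chain gene B2m, the peptide transporter genes Tap1 and Tap2, the peptide loading gene Tapbp, the immunoproteasome genes Psmb8 and Psmb9, and the transcription factor gene Nlrc5. All 10 were found among the 54315 mouse features (annotated genes and LncRNAs that the authors assembled), and all 10 were among the 24685 features that passed the filter on low counts. In rat, 7 of the 10 symbols were found among 39281 features and 1 of these, B2m, had a count.

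The mouse libraries came from adult mice of 2 inbred strains, BALB/c and B10.D2, which had spared nerve injury (SNI, which severs the common peroneal and sural nerves but keeps the tibial nerve) or sham surgery, in which the nerves were exposed only. Each library was the ribodepleted RNA of L3 and L4 DRG of 1 animal, taken 28 days after surgery, from 6 BALB/c sham mice (3 males and 3 females), 4 BALB/c SNI mice (2 and 2), 5 B10.D2 sham mice (3 and 2) and 5 B10.D2 SNI mice (2 and 3). The rat libraries held polyadenylated RNA of L5 DRG of male Wistar rats 21 days after spinal nerve transection (SNT) or sham surgery, with 3 animals pooled per library and 4 libraries per group. The strains were chosen for their different mechanical hypersensitivity following nerve injury, and the class I genes are read here from the counts of that comparison.

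MHC class I molecules show peptides from inside a cell to CD8 T cells and to natural killer (NK) cells. A heavy chain pairs with beta-2-microglobulin, the product of B2m, in the endoplasmic reticulum. There the transporter of Tap1 and Tap2 brings in peptides that the proteasome has cut, with tapasin, the product of Tapbp, holding the complex together. Interferons raise most of these genes, and the Nlrc5 protein acts at the promoters of class I genes, at a module with an X box and a Y box. Neurons are known for low class I levels at rest. BALB/c and B10.D2 both carry the H2d form of the MHC, whereas the mm10 reference to which the reads were aligned carries the H2b form. Class I heavy chain genes are among the most variable genes between these forms.

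In GRCm38, 8 of the 10 members lie in the MHC on chromosome 17, between Tapbp (chr17:33915899-33929292) and H2-T23 (chr17:36029773-36032855). H2-K1 lies at chr17:33996017-34000347 and H2-D1 at chr17:35262730-35267499. B2m lies outside the MHC at chr2:122147686-122153083 and Nlrc5 at chr8:94434356-94527272. Tap1 and Psmb9 are read in opposite directions from RefSeq start sites that lie close together. The promoters of H2-K1 and B2m are shown because both genes differed between the strains in sham and in SNI libraries, while they lie on different chromosomes. They are the 250 bases before the RefSeq start site on GRCm38.p6, 5′ to 3′ on the coding strand (H2-K1 at chr17:34000348-34000597, minus strand, and B2m at chr2:122147437-122147686, plus strand). Capitals mark the letters of an interferon response core (ISRE, GAAANNGAAA), a kappa B core (GGGANNNNCC), an X2 box core (TGACG) and a Y box core (CCAAT, here as its complement ATTGG). Windows in the MHC, such as that of H2-K1, hold the H2b sequence of the reference, whereas both strains carry H2d. Both strands were searched, and the 2 box cores were chosen after the sequences had been seen.
H2-K1: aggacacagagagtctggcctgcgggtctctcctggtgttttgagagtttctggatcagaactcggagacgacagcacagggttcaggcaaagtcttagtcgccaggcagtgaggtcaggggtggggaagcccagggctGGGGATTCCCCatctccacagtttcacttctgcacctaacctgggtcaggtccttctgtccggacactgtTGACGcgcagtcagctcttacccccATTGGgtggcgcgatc
B2m: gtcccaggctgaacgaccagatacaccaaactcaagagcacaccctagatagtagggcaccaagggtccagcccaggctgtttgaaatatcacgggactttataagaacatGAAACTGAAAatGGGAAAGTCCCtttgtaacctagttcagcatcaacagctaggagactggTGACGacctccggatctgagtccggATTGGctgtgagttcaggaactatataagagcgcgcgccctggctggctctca

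The table of promoters held 8 of the 10 members, and not Tap2 or Nlrc5. The kappa B core was in 3 of these 8 (B2m, H2-K1 and H2-D1) against 17.3% of all 27025 promoters searched. The 30 bases around it are shown for both classical heavy chain genes, because the H2-K1 and H2-D1 windows matched at 87.4% of 190 aligned bases, and the 2 genes were also the pair of members with the most similar levels over the libraries. The capitals are the kappa B core, which reads on both strands in overlapping positions.
H2-K1: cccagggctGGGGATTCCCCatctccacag
H2-D1: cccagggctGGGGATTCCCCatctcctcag

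The ISRE core was in 2 of the 8 promoters (B2m and H2-T23) against 3.04% of all promoters. A gamma interferon core (GAS, TTCNNNGAA) was in 1 of 8 (Psmb8) against 7.18%. The X2 box core was in 5 of 8 against 17.9%, and the Y box core in 7 of 8 against 34.5%. Since these 2 cores were chosen after the sequences had been seen, their counts are no test of a surplus. H2-K1 and H2-D1, whose windows are alike, count separately for the kappa B, X2 box and Y box cores. The Tap1 and Psmb9 windows are largely the same DNA, and their X2 box match is 1 site counted for both genes, as is their Y box match in common. The windows of H2-D1, Psmb8, Psmb9 and Tapbp lie wholly inside the gene as GENCODE annotates it, which starts upstream of the RefSeq site, and that of H2-T23 lies partly inside. Only exact letters of a core were counted, so a window without a match may still hold a variant of it. These matches describe letters in the windows and nothing about binding.

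Mouse libraries held 30 to 41.9 M counts and rat libraries 12 to 17.9 M counts. Every member had at least 126 counts in every mouse library, so that counting error was small beside the spread between animals. The summed level of 6 neuron markers was 8231 to 11770 CPM (counts per M counts of the library, after TMM scaling of its total) per mouse library, and all 9 tested genes of the axotomy list (such as Atf3, Gal and Sprr1a) rose after SNI in both strains, as the labelled tissue and surgery imply. No library with counts was left out.

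Per kilobase of exon, B2m had the highest level of the members in all 4 mouse groups. It ran from 103.6 ± 14.01 CPM per kilobase (SD, n = 6) in BALB/c sham to 209.3 ± 46.1 (SD, n = 5) in B10.D2 SNI. H2-D1 came next, with 51.4 ± 7.24 in BALB/c sham (SD, n = 6) and 77.4 ± 13.6 in B10.D2 SNI (SD, n = 5), and its libraries did not overlap those of B2m or of the gene below it in any group. H2-K1 and Tapbp followed. In BALB/c sham their levels of 21.6 ± 3.73 and 22.6 ± 1.79 CPM per kilobase (SD, n = 6) overlapped, whereas in both B10.D2 groups all libraries had more H2-K1 than Tapbp. In B10.D2 SNI the 2 genes stood at 38.4 ± 8.08 and 25.7 ± 2.06 CPM per kilobase (SD, n = 5).

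The other 6 members were at lower levels. Tap2, H2-T23 and Psmb8 formed a middle group whose neighbours overlapped in all 4 mouse groups, with means between 3.70 and 8.57 CPM per kilobase. Tap1 followed, from 2.31 ± 0.373 CPM per kilobase (SD, n = 6) in BALB/c sham to 4.28 ± 1.09 (SD, n = 5) in B10.D2 SNI. It overlapped with Psmb8 in B10.D2 SNI but in no other group. Psmb9 lay below Tap1 without overlap in any group. Nlrc5 had the lowest mean in all groups, from 0.816 ± 0.205 (SD, n = 6) in BALB/c sham to 2.03 ± 0.724 CPM per kilobase (SD, n = 5) in B10.D2 SNI, and overlapped with Psmb9 in all groups but BALB/c SNI. In bulk tissue, more RNA per cell and more cells of a type with much class I RNA cannot be told apart.

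**Figure D1:**
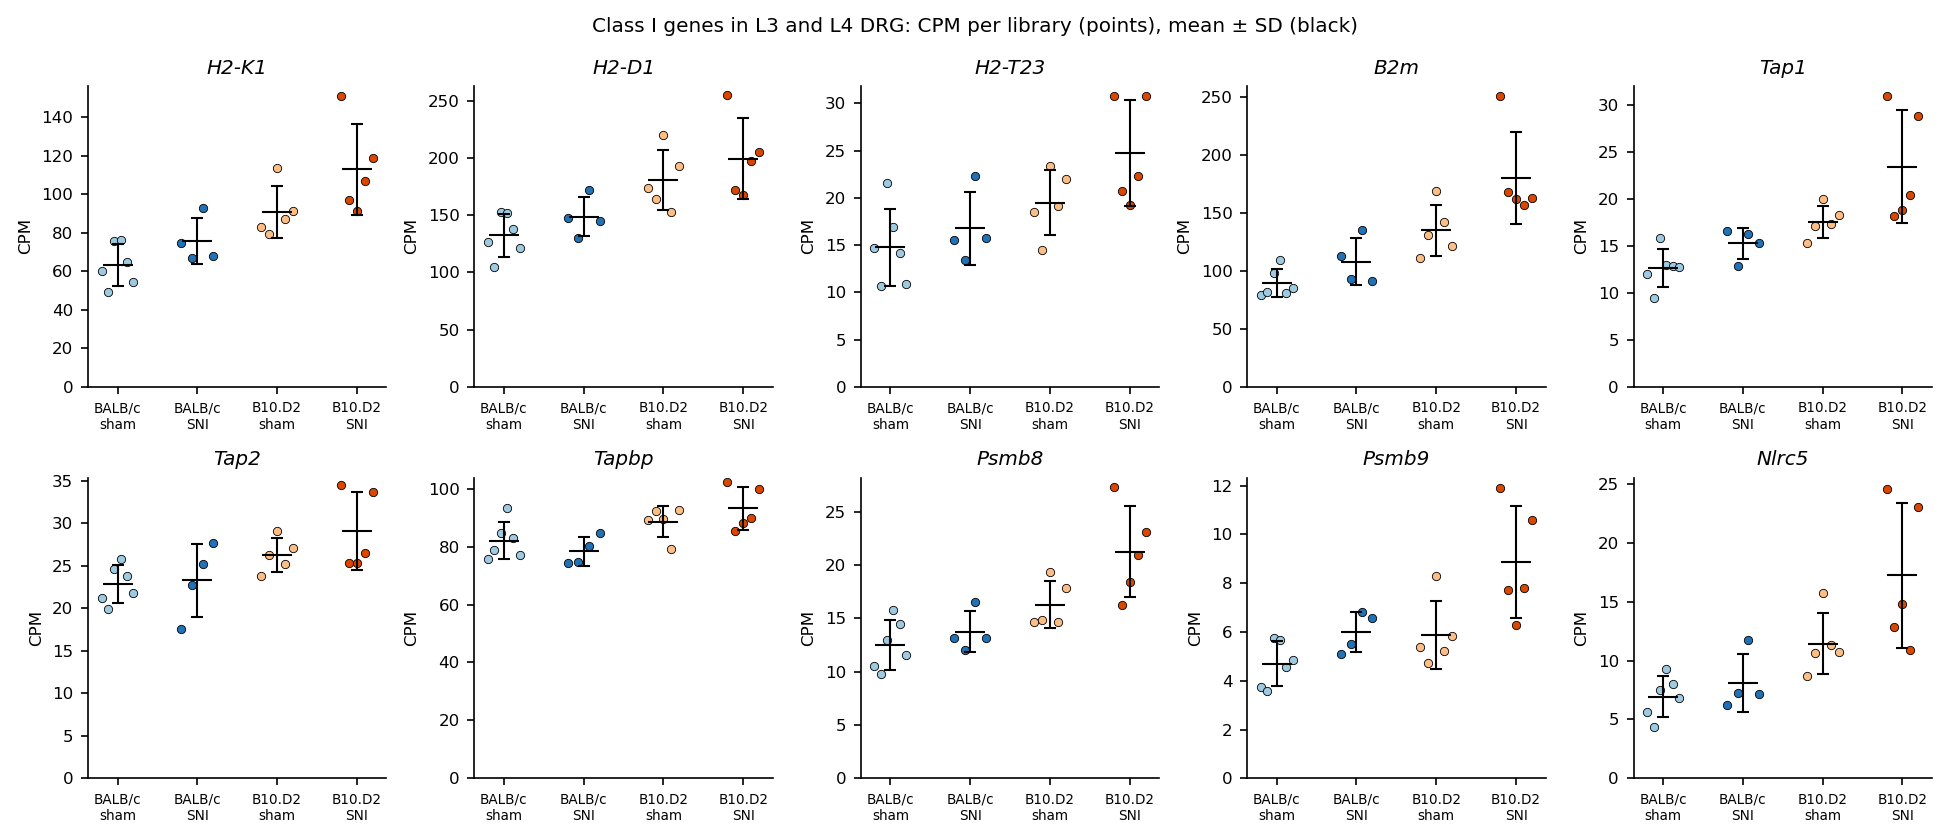
CPM (vertical axis, linear, from 0) of the 10 class I genes in each of the 20 mouse libraries, by strain and surgery (horizontal axis). Points are libraries, and black bars are the group mean and SD. B10.D2 SNI has the highest mean of the 4 groups in all 10 panels, for example 180.0 CPM of B2m against 89.1 in BALB/c sham.

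All 10 members were higher in B10.D2 than in BALB/c sham mice by the fitted estimate, and 6 of these differences passed the test: B2m, H2-K1, H2-D1, Tap1, Psmb8 and Nlrc5. The same test called 21.6% of the 24685 features between the strains in sham, and 11.5% as higher in B10.D2. After SNI, 9 of the 10 passed, all higher in B10.D2, against 20.9% of all features called and 10.9% called higher. Tap2 was the exception. The median difference of the 10 members was 0.45 on the log2 scale in sham (1.36-fold) and 0.56 in SNI (1.47-fold), while the median over all features tested was -0.0063 and -0.0070. The test was the quasi-likelihood F test of edgeR with sex as a covariate, two-sided, and adjusted p-values are Benjamini-Hochberg values over all features tested.

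B2m, the light chain that every class I molecule needs, ranged from 79.5 to 109.5 CPM in the 6 BALB/c sham libraries, with a median of 83.4. In the 5 B10.D2 sham libraries it stood at 111, 130, 168, 142 and 121 CPM. All B10.D2 sham libraries therefore lay above all BALB/c sham libraries, an arrangement found in 7.24% of all features tested. The difference was 0.62 on the log2 scale (SE 0.109, 1.53-fold with a 95% interval of 1.31 to 1.79, edgeR adjusted p = 0.000218).

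After SNI, B2m was at 112, 92.8, 135 and 91.5 CPM in BALB/c, and at 250.5, 168, 162, 157 and 163 CPM in B10.D2. Again no libraries overlapped, as in 9.41% of all features with B10.D2 above BALB/c in SNI. The difference was 1.63-fold (95% interval 1.37 to 1.95, edgeR adjusted p = 0.000192). B2m was also the sole member called between the strains when females alone were fitted (adjusted p = 0.0439 in sham and 0.0323 in SNI, edgeR).

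H2-K1, a classical heavy chain gene, was at 49.3 to 76.2 CPM in BALB/c sham, with a median of 62.4. The B10.D2 sham libraries held 83.1, 79.1, 113.5, 87.3 and 91.3 CPM, all above the BALB/c sham libraries. The fold was 1.46 (95% interval 1.23 to 1.74, edgeR adjusted p = 0.00169). After SNI the BALB/c libraries held 74.5, 66.6, 92.8 and 68.1 CPM and the B10.D2 libraries 151, 96.8, 91.3, 107 and 119 CPM. One B10.D2 library lay below the highest BALB/c library, and the fold was 1.48 (95% interval 1.22 to 1.79, adjusted p = 0.00353).

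H2-D1, the other classical heavy chain gene of the reference, was at 105 to 153 CPM in BALB/c sham, with a median of 132. In B10.D2 sham it was at 174, 164, 220.0, 153 and 193 CPM. The groups did not overlap, but by a narrow margin, with 152.7 CPM in the highest BALB/c and 153.0 CPM in the lowest B10.D2 library. The fold was 1.38 (95% interval 1.18 to 1.62, edgeR adjusted p = 0.00359), and 1.33 after SNI (1.11 to 1.59, adjusted p = 0.0195), where the strains overlapped.

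H2-T23, which encodes the non-classical molecule Qa-1 that NK cell receptors read, had a similar difference and a wider spread. Its mean was 14.8 ± 4.08 CPM in BALB/c sham (SD, n = 6) and 19.5 ± 3.46 CPM in B10.D2 sham (SD, n = 5). That difference of 1.35-fold did not pass (edgeR adjusted p = 0.0857). The difference after SNI of 1.47-fold did (adjusted p = 0.0433), and it was lost in 8 of 28 alternative fits. Reads of heavy chain genes can be shared between relatives: 4.64% of the 100-base windows of the H2-D1 transcript and 7.28% of those of H2-T23 occur exactly in other reference transcripts, against none for H2-K1. How far the H2d sequences of these strains aligned to the H2b reference was not tested. It was also not tested whether BALB/c and B10.D2 reads aligned equally well to mm10 outside the MHC, where B2m and Nlrc5 lie. That limit applies to all strain differences given here.

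Nlrc5, the class I transactivator, had the largest difference of the 10 members in both comparisons. BALB/c sham libraries were at 4.34 to 9.26 CPM, with a median of 7.15, and B10.D2 sham libraries at 8.68, 10.7, 15.7, 11.3 and 10.7 CPM. The groups overlapped at 1 B10.D2 library, and the fold was 1.70 (95% interval 1.28 to 2.27, edgeR adjusted p = 0.00685). After SNI, BALB/c libraries held 6.23, 7.22, 11.7 and 7.18 CPM and B10.D2 libraries 24.5, 12.9, 14.8, 10.9 and 23 CPM. The fold was 2.11 (95% interval 1.54 to 2.90, adjusted p = 0.00101), although 1 library of each strain crossed into the range of the other. No 100-base window of the Nlrc5 or B2m transcript occurs in another annotated transcript.

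Of the transporter genes, Tap1 was at 9.42 to 15.8 CPM in BALB/c sham and at 15.3, 17.1, 19.9, 17.3 and 18.3 CPM in B10.D2 sham, 1.4-fold higher (95% interval 1.15 to 1.71, edgeR adjusted p = 0.0137). After SNI it was at 16.6, 12.9, 16.3 and 15.3 CPM in BALB/c and at 30.9, 18.2, 18.9, 20.4 and 28.8 CPM in B10.D2, with no overlap and a fold of 1.53 (1.23 to 1.91, adjusted p = 0.00563). Tap2, its partner, differed less by the estimate. The fold was 1.16 in sham (95% interval 0.997 to 1.35, adjusted p = 0.168) and 1.24 in SNI (1.05 to 1.47, adjusted p = 0.0599), and neither passed.

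Tapbp, the tapasin gene, was the most even of the members. It was at 82.1 ± 6.51 CPM in BALB/c sham (SD, n = 6) and 88.6 ± 5.41 CPM in B10.D2 sham (SD, n = 5), a fold of 1.08 (95% interval 0.988 to 1.18, edgeR adjusted p = 0.231). After SNI the BALB/c libraries were at 74.3, 74.6, 80.1 and 84.8 CPM, and the B10.D2 libraries at 102, 85.5, 88.1, 90.01 and 99.8 CPM. These did not overlap, and the fold of 1.19 passed (1.08 to 1.31, adjusted p = 0.0121). Of the Tapbp transcript, 14% of windows occur exactly in other annotated transcripts.

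The immunoproteasome genes encode catalytic subunits that replace the standard subunits and change which peptides are cut. Psmb8 was at 12.5 ± 2.35 CPM in BALB/c sham (SD, n = 6) and 16.3 ± 2.21 CPM in B10.D2 sham (SD, n = 5), 1.32-fold (95% interval 1.10 to 1.6, edgeR adjusted p = 0.0301). That call was lost in 6 of 29 alternative fits. After SNI the fold was 1.53 (1.25 to 1.89, adjusted p = 0.00334). Psmb9 passed in SNI, at 1.46-fold (1.13 to 1.90, adjusted p = 0.0352, lost in 7 of 28 fits), but not in sham, at 1.27-fold (0.999 to 1.62, adjusted p = 0.160). Whether the strain difference itself changed with surgery was tested as the interaction below.

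Library 64 of BALB/c SNI weighed on the count after SNI. Without it 5 members passed in place of 9 (B2m, H2-K1, Nlrc5, Psmb8 and Tap1). Without library 69 of B10.D2 SNI, which had the highest CPM of all 20 mouse libraries for 9 of the 10 members, 6 passed. With males alone 7 members passed in sham and 7 in SNI, and with females alone 1 and 1. With sham and SNI libraries averaged within a strain, all 10 members passed.

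**Figure D2:**
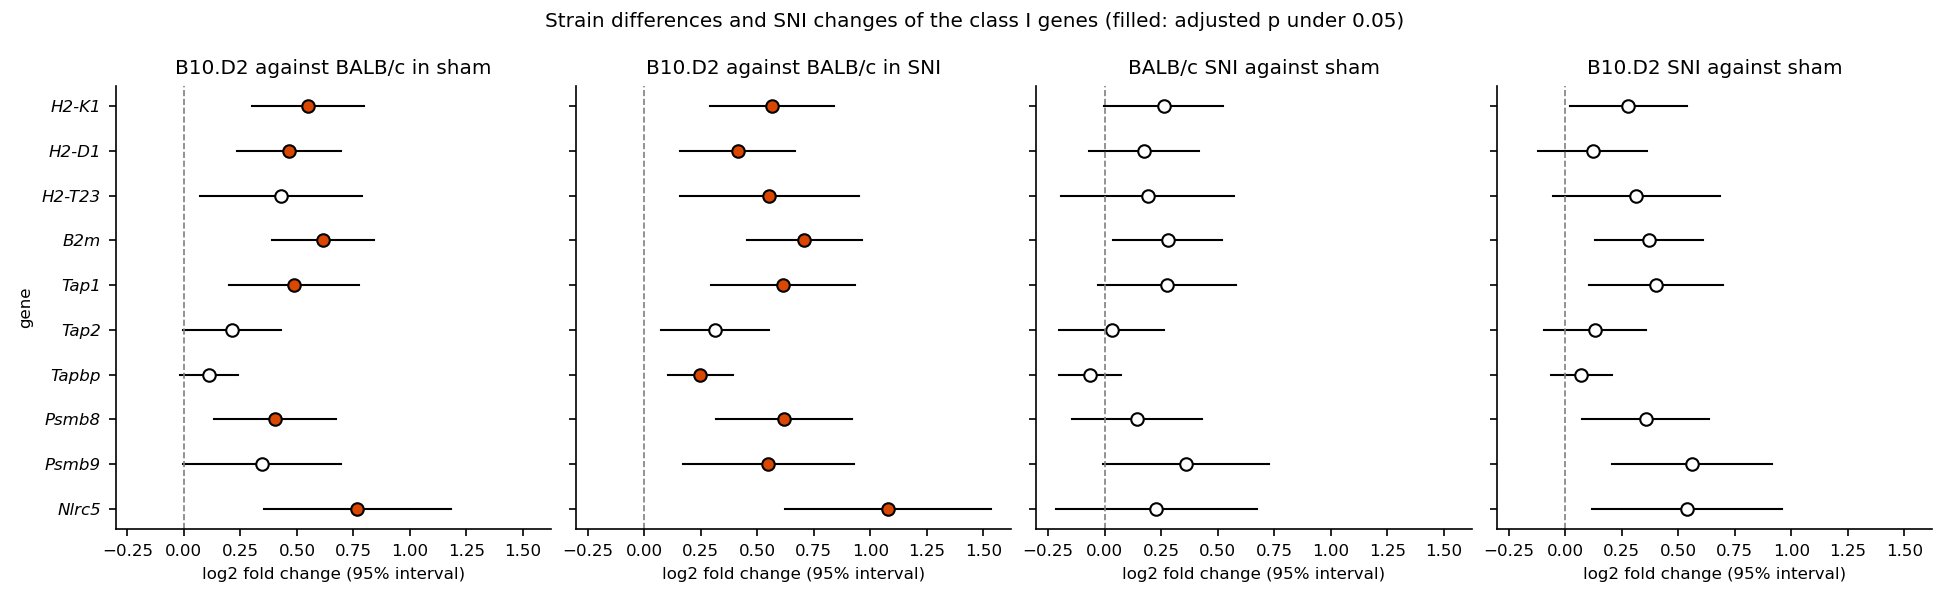
Fitted log2 fold changes (horizontal axis, log2 scale) of the 10 genes (vertical axis) with 95% intervals, in the 2 comparisons between strains and the 2 between SNI and sham. Filled points passed an edgeR adjusted p under 0.05, which are 6 genes in sham, 9 in SNI and none in either injury comparison.

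After nerve injury, no member passed the test in either strain. In BALB/c, SNI against sham called 0 of the 10 members, against 9.69% of all features (1190 higher and 1202 lower). The estimates were above 0 for 9 of the 10 and 1 member had an unadjusted p under 0.05 in edgeR. DESeq2 called 0. The median change of the members was 0.21 on the log2 scale (1.16-fold), beside 0.0033 over all features. In B10.D2, SNI against sham also called 0 of the 10, against 4.58% of all features. All 10 estimates were above 0, 6 members had an unadjusted p under 0.05, and the median was 0.34 (1.26-fold) beside 0.0075 over all features. DESeq2 called 2, B2m and Psmb9. The comparisons of SNI with sham share their libraries with the comparisons of the strains.

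Psmb9 had the largest estimates. In BALB/c it was at 3.58 to 5.77 CPM in sham, with a median of 4.71, and at 5.09, 5.49, 6.82 and 6.58 CPM after SNI, with overlap. The fold was 1.28 (95% interval 0.993 to 1.65, edgeR adjusted p = 0.230). In B10.D2 it was at 5.38, 4.73, 8.29, 5.22 and 5.84 CPM in sham and at 11.9, 7.73, 6.28, 7.81 and 10.6 CPM after SNI, also with overlap. The fold was 1.47 (95% interval 1.15 to 1.89, adjusted p = 0.0679).

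B2m had folds of 1.21 in BALB/c (95% interval 1.03 to 1.43, edgeR adjusted p = 0.147) and 1.29 in B10.D2 (1.10 to 1.53, adjusted p = 0.0730). Nlrc5 was 1.17-fold in BALB/c (0.862 to 1.59, adjusted p = 0.576) and 1.45-fold in B10.D2 (1.09 to 1.94, adjusted p = 0.152). For H2-K1 the folds were 1.20 and 1.21, with intervals of 0.997 to 1.44 and 1.01 to 1.45. Tapbp and Tap2 had the smallest estimates in BALB/c, and Tapbp, H2-D1 and Tap2 in B10.D2. Tapbp was 0.956-fold in BALB/c (0.869 to 1.05) and 1.05-fold in B10.D2 (0.957 to 1.15). Tap2 was 1.02-fold (0.870 to 1.20) and 1.09-fold (0.936 to 1.28), and H2-D1 1.13-fold (0.952 to 1.34) and 1.09-fold (0.92 to 1.29). These 95% intervals are of the mean change in whole ganglia 28 days after SNI, and for no member in either strain did the interval reach 2-fold. A rise confined to a part of the cells was not tested.

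When the SNI effect was averaged over both strains, an alternative added after the data had been seen, 4 members passed: B2m, H2-K1, Psmb9 and Tap1. Leaving out single libraries changed the count in B10.D2 to 1 without sham library 67 (Psmb9), 1 without SNI library 76 (Psmb8) and 2 without SNI library 78 (B2m and Psmb9). Library 67 had the highest B2m, H2-K1 and H2-D1 CPM of the B10.D2 sham mice.

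The change after SNI did not differ between the strains by the interaction test. None of the 10 members passed, against 0.0243% of all features (6 of 24685), and none had an unadjusted p under 0.05 (DESeq2 also called 0). The largest interaction estimate was that of Nlrc5, where the SNI fold in B10.D2 was 1.24 times that in BALB/c (95% interval 0.811 to 1.89). For H2-K1 it was 1.01 (0.783 to 1.31). A test that misses its threshold does not show equal changes, and these intervals give the differences the data allow.

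Male and female mice differed in no member by the test, against 0.243% of all features. All 10 estimates were lower in males, with Nlrc5 the largest at -0.38 on the log2 scale (SE 0.146, edgeR adjusted p = 0.301) and B2m at -0.26 (adjusted p = 0.193). 3 members had an unadjusted p under 0.05 and DESeq2 called 0. The sign of Tapbp, at -0.01, turned in 9 fits that each left out 1 library.

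The members varied together from mouse to mouse. Over the 20 libraries, Pearson's r of log2(CPM + 1) between 2 members ran from 0.669 (B2m and Tapbp) to 0.974 (H2-K1 and H2-D1), with a median of 0.879 over 45 pairs. After group and sex means were removed, it ran from 0.330 (B2m and Tap2) to 0.963 (H2-K1 and H2-D1), with a median of 0.753. These are descriptions, since the values share library, depth and tissue, and Tap1 shares its first bases with Psmb9 in the annotation. Library 69 of B10.D2 SNI had the highest level for 9 members and library 90 of the same group for H2-T23. Library 51 of BALB/c sham had the lowest level for 7 members, library 49 of BALB/c SNI for 2 and library 50 of BALB/c sham for 1.

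Outside the members and the pathway lists, the 5 features most like the mean standardised level of the 10 members were Irgm2, H2-K2, Iigp1, Bst2 and Igtp, with Pearson's r of 0.953, 0.952, 0.952, 0.941 and 0.939 over 20 libraries. Irgm2, Iigp1 and Igtp are interferon-induced GTPases and Bst2 (tetherin) is an interferon-induced membrane protein. H2-K2 is listed by its identifier alone in the files and named here by the reference table. It is a heavy chain relative beside H2-K1, and its level may hold reads from related genes. With group and sex means removed, r was 0.867, 0.849, 0.881, 0.815 and 0.907 in the same order.

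Among 15 tested of 22 further heavy chain genes and relatives, 6 were higher in B10.D2 sham mice and none lower, and after SNI 5 were higher and none lower. Over all features, 21.6% were called in sham (11.5% higher) and 20.9% in SNI (10.9% higher). H2-Q7 was at 1.61 ± 0.252 CPM in B10.D2 sham (SD, n = 5) and 0.735 ± 0.198 in BALB/c sham (SD, n = 6), 2.25-fold (edgeR adjusted p = 0.00123). H2-Q2 was 1.6-fold (adjusted p = 0.00537) and H2-Q10 1.66-fold (adjusted p = 0.0352) in sham. After SNI the largest by the naming rule were H2-Q4 (1.62-fold, adjusted p = 0.0041), H2-Q2 (1.61-fold, adjusted p = 0.0112), Hfe (1.51-fold, adjusted p = 1.94e-05) and H2-T22 (1.21-fold, adjusted p = 0.0435). Hfe, an iron regulator with a class I fold that binds beta-2-microglobulin but no peptide, was also higher in B10.D2 sham mice (1.58-fold, adjusted p = 1.18e-06). It was the sole gene of the list called after SNI in BALB/c (1.23-fold, adjusted p = 0.0252, lost in 11 of 30 alternative fits), and none was called in B10.D2. All features were called at 9.69% in BALB/c and 4.58% in B10.D2 in these comparisons. The calls of H2-Q10 in sham and H2-T22 in SNI were lost in 9 of 29 and 9 of 28 fits. The median strain difference of the list was 0.29 in sham and 0.27 in SNI on the log2 scale.

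Among 9 genes of peptide loading and trimming, 2 were higher in B10.D2 in sham and 2 in SNI, and none lower, a share near the 21.6% and 20.9% of all features called. Tapbpl, a relative of tapasin that edits peptides, was 1.30-fold higher in sham (edgeR adjusted p = 0.002) and 1.42-fold after SNI (adjusted p = 0.000467). Erap1, which trims peptides in the endoplasmic reticulum, was 1.19-fold (adjusted p = 0.00422) and 1.29-fold higher (adjusted p = 0.000313). The chaperone genes Calr, Canx, Pdia3 and Hspa5 and the translocon genes were not called in either comparison, and the medians of the list were 0.02 in sham and -0.06 in SNI. No gene of this list was called after SNI in either strain.

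Among 8 genes of the proteasome activator and of subunit exchange, Psmb5 and Psme1 were higher in B10.D2 in both comparisons and none was lower, beside 21.6% and 20.9% of all features called. The medians of the list were 0.08 in sham and 0.02 in SNI on the log2 scale. Psmb5 is the standard subunit that Psmb8 replaces. It was at 61.4 ± 3.77 CPM in B10.D2 sham (SD, n = 5) and 42.2 ± 4.21 in BALB/c sham (SD, n = 6), 1.45-fold (edgeR adjusted p = 3.44e-06), so the standard and the immune subunit were both higher in B10.D2. Psme1, a subunit of the interferon-induced activator PA28, was 1.22-fold (adjusted p = 0.00844). None was called after SNI.

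Among 23 tested of 25 genes of class I transcription and interferon signalling, 6 were higher in B10.D2 sham mice and 5 after SNI, and none lower. Beside them, 21.6% of all features were called in sham and 20.9% in SNI, with 11.5% and 10.9% called higher. The medians of the list were 0.09 in sham and 0.07 in SNI on the log2 scale. Ciita, the class II counterpart of Nlrc5, was 1.68-fold higher in sham (edgeR adjusted p = 0.00703) and 1.58-fold after SNI (adjusted p = 0.0298). In sham, the Y box factor gene Nfyb was 1.18-fold (adjusted p = 0.00129), Irf9 1.16-fold (adjusted p = 0.0262) and Irf3 1.15-fold higher (adjusted p = 0.0121). After SNI, Irf7 was at 9.67 ± 2.81 CPM in B10.D2 (SD, n = 5) and 6.10 ± 0.361 in BALB/c (SD, n = 4), 1.57-fold (adjusted p = 0.0354). Irf9 was 1.24-fold higher (adjusted p = 0.00481).

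Of the same list, 3 of 23 tested genes rose after SNI in B10.D2 and 2 in BALB/c, and none fell, beside 4.58% and 9.69% of all features called. In BALB/c this is no more than the share of all features. In B10.D2 these were Irf1, an activator of class I promoters, at 29.5 ± 5.50 CPM against 22.5 ± 1.12 in sham (SD, n = 5 each; 1.32-fold, edgeR adjusted p = 0.0352), Irf9 (1.20-fold, adjusted p = 0.0380) and the NF-kappa B gene Rela (1.17-fold, adjusted p = 0.0233). In BALB/c they were Rela (1.25-fold, adjusted p = 0.000803) and the interferon receptor gene Ifnar2 (1.18-fold, adjusted p = 0.00319). The B10.D2 calls of Irf9, Irf1 and Rela were lost in 12, 10 and 9 of 30 alternative fits, and the strain calls of Irf7 and Ciita in SNI in 8 and 7 of 28.

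The list of class I recognition held 18 receptor, signalling and effector genes, not all of them confined to T and NK cells. Among the 16 tested, 8 were higher in B10.D2 sham mice and 4 after SNI, and none lower. Over all features, 21.6% were called in sham (11.5% higher) and 20.9% in SNI (10.9% higher). Klrk1, the NKG2D receptor gene, was at 1.66 ± 0.249 CPM in B10.D2 sham (SD, n = 5) and 0.604 ± 0.252 in BALB/c sham (SD, n = 6), 2.91-fold (edgeR adjusted p = 0.000111), and 2.95-fold after SNI (adjusted p = 0.000338). Pirb, a receptor for class I that is also found on neurons, was 1.71-fold higher in sham (adjusted p = 0.0016) and 1.45-fold after SNI (adjusted p = 0.0434, lost in 9 of 28 alternative fits). The other genes of the list called between the strains had a mean under 1 CPM in both groups compared. The median strain difference of the list was 0.73 in sham and 0.38 in SNI on the log2 scale. After SNI 1 of the 16 rose in BALB/c and none in B10.D2, beside 9.69% and 4.58% of all features called. It was Gzmb, a T and NK cell protease (3.76-fold, edgeR adjusted p = 0.0181), whose mean was under 1 CPM in both groups. The T cell marker genes Cd3d, Cd3e, Cd3g and Cd8a are part of this list.

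Some macrophage and T cell markers were called higher in B10.D2, and B cell markers were not. Of 8 macrophage markers, 4 were called higher in B10.D2 sham mice (Adgre1, Aif1, Cx3cr1 and Ptprc) and 2 after SNI (Adgre1 and Aif1), and none lower. Of all features, 21.6% were called in sham and 20.9% in SNI, and 11.5% and 10.9% were called higher. The summed level of the macrophage markers was 73.9 to 180.6 CPM in BALB/c sham, 147.5 to 165.2 in B10.D2 sham, 136.1 to 210.0 in BALB/c SNI and 145.4 to 241.0 in B10.D2 SNI. Of 5 tested T cell markers, 4 were called higher in B10.D2 sham mice and 1 after SNI (Cd4). Their summed level was low, at 0.802 to 1.55 CPM in BALB/c sham and 1.70 to 3.16 CPM in B10.D2 sham, with no overlap. Cd3e had no count in 1 BALB/c sham and 1 BALB/c SNI library. Of 4 B cell markers, none was called in sham and 3 were lower in B10.D2 after SNI. Against sham, 3 of the 8 macrophage markers rose after SNI in BALB/c and 0 in B10.D2, beside 9.69% and 4.58% of all features called. All 8 estimates were above 0 in both strains (medians 0.49 and 0.42 on the log2 scale), and no macrophage marker passed the interaction test. Library 69, highest for 9 class I members, also had the highest summed macrophage (241.0 CPM) and T cell (3.88 CPM) markers, and library 51, lowest for 7, had the lowest macrophage sum (73.9 CPM) and the highest sum of Schwann cell markers of all 20 libraries (4906 CPM, next 3793). The part of these cells in the class I differences was not tested.

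**Figure D3:**
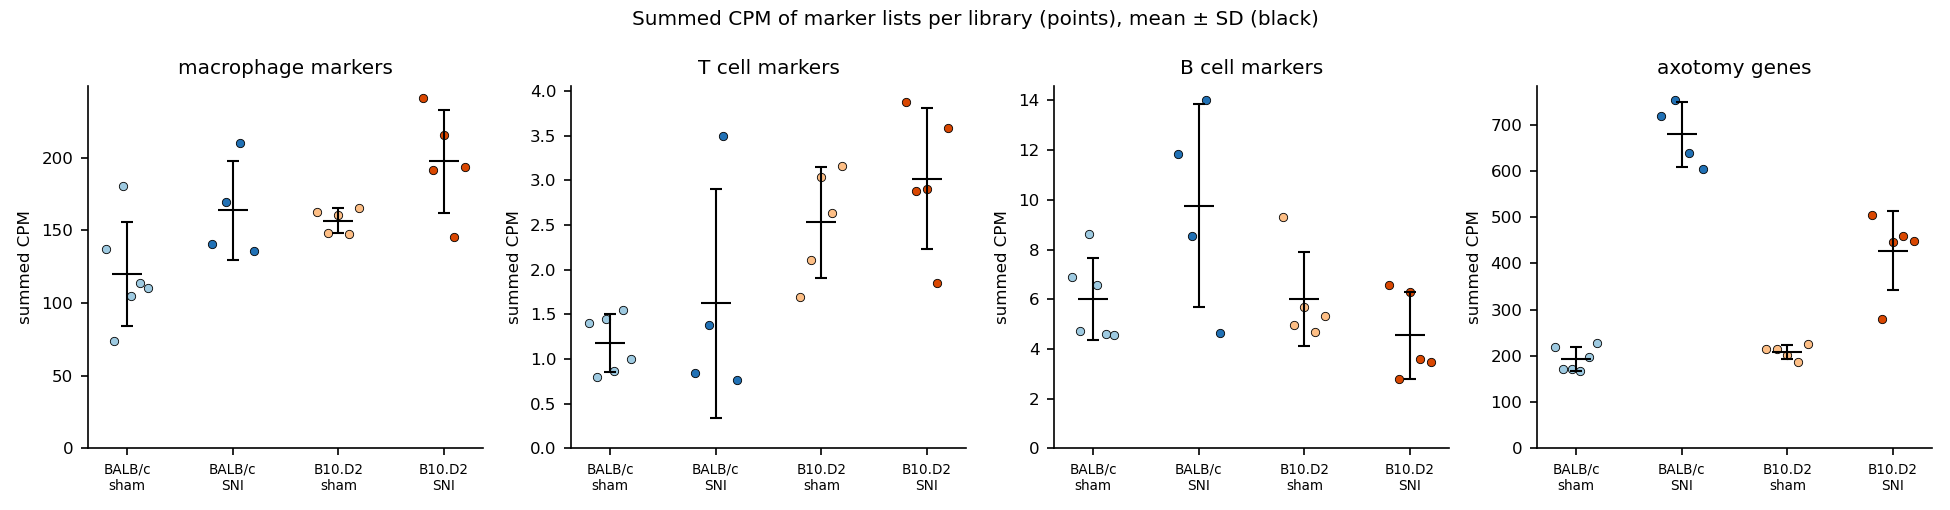
Summed CPM (vertical axis, linear, from 0) of 4 lists of marker genes in each mouse library, by strain and surgery (horizontal axis), with black bars for mean and SD. Macrophage and T cell sums have their highest library in B10.D2 SNI (241.0 and 3.88 CPM), whereas the axotomy genes are highest in BALB/c SNI (603.5 to 754.3 CPM).

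The axotomy genes gave a contrast within the same libraries. Their summed level after SNI was 603.5 to 754.3 CPM in BALB/c and 280.6 to 504.4 CPM in B10.D2, without overlap, so that class I members were higher and axotomy genes lower in the B10.D2 SNI libraries. By the test, 3 of 9 axotomy genes were lower in B10.D2 than in BALB/c after SNI (Gal, Sox11 and Gadd45a) and none higher. Of all features, 20.9% were called in that comparison.

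Of the 127 tested features between Tapbp and H2-T23 that are no members, 23 (18.1%) were called between the strains in sham, 19 of them higher in B10.D2, and 21 (16.5%) in SNI, 16 of them higher. Both shares were below the 21.6% and 20.9% of all features called in either direction. The 19 and 16 of 127 called higher stand beside 11.5% and 10.9% of all features called higher in B10.D2. Assembled LncRNAs near the members were at low levels. LncRNA5545, whose span overlaps that of Nlrc5 on the same strand, was at 0.203 ± 0.0986 CPM in BALB/c sham (SD, n = 6), 0.456 ± 0.318 in BALB/c SNI (SD, n = 4), 0.443 ± 0.178 in B10.D2 sham and 0.911 ± 0.470 in B10.D2 SNI (SD, n = 5 each). Its strain difference was 2.15-fold in sham (edgeR adjusted p = 0.108) and did not pass. LncRNA7274, 1093 bases beyond H2-D1, and LncRNA3223, on the strand opposite to Tapbp, were called in no comparison either.

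In rat, 6 of the 7 member symbols found (Tap1, Tap2, Tapbp, Psmb8, Psmb9 and Nlrc5) and all 33 listed RT1 features, the rat MHC genes, were at 0 in all 8 libraries. So were 7 of the 8 symbols of the proteasome list, among them Psmb5 and Psmb6, standard subunits that every cell uses. A value of 0 is therefore given only as listed, and not as absence of expression. B2m was counted well, with 10763 to 14891 counts per library. It was at 1033, 825, 809 and 881.5 CPM in sham and at 853.5, 811, 827 and 705.5 CPM after SNT, with overlap. The SNT libraries lay lower on average, at 799 ± 64.9 CPM against 887 ± 102 (SD, n = 4 each), a fold of 0.901 (95% interval 0.743 to 1.09, edgeR adjusted p = 0.384) that did not pass. The same test called 27.4% of the 13690 rat features. The species differ in injury, ganglion, RNA fraction and sex, and were not compared.

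**Figure D4:**
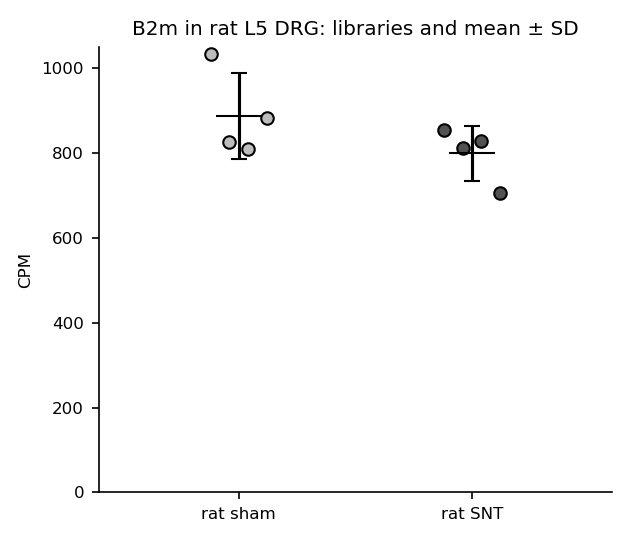
CPM of B2m (vertical axis, linear, from 0) in the 4 sham and 4 SNT rat libraries (horizontal axis). Points are libraries of 3 pooled animals each, and black bars are the mean and SD, 887 in sham and 799 after SNT, with overlapping libraries.

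In the rat list of class I transcription and interferon signalling, 8 of 13 tested genes rose after SNT and none fell. Among them were Creb1, Ifngr1, Irf7, Jak2, Nfkb1, Rela and Tyk2. Of 7 tested recognition genes, 3 rose (Cd3e, Klrk1 and Lck) and none fell. Over all rat features tested, 27.4% were called. Of the 25 symbols of the signalling list found in rat, 10 were at 0 in all libraries, so the tested genes are only a part of it. No tested gene of the heavy chain list (2 tested), the loading list (6) or the proteasome list (1) was called.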

How the data were processed

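The authors aligned the reads with STAR to mm10 or rn6 and counted read pairs per feature with HTSeq, strand by strand, over Ensembl genes and the LncRNAs they assembled. The deposited values are raw counts, and tool versions are not given in the sources used here. The authors' own DESeq2 tables hold fold changes and p-values, of which only the gene symbols were used. 2 labelled mouse samples with no count column were not analysed here.

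Counts were fitted with edgeR 4.0.16 (R 4.3.3; TMM, filterByExpr, quasi-likelihood F test): sex, strain, injury and their interaction over the 20 mouse libraries, injury over the 8 rat libraries. p-values were Benjamini-Hochberg adjusted over all features tested, and called means an adjusted p under 0.05. CPM are counts divided by the TMM-scaled library total in M counts, and CPM per kilobase divides by the GENCODE M21 exon union. DESeq2 1.42.0, RLE scaling, other filters, single sexes and leaving out each library were alternatives. The models were tested on simulated counts. Mouse replicates are separate animals and rat replicates separate pools of 3.

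The members and gene lists were chosen with earlier results of these data known. The text names all members and, per list and comparison, at most 4 called genes with the largest change and a mean of at least 1 CPM. A gene of the lists that the rule would name is not reported here. Marker genes, Gzmb, rat genes called and the nearby LncRNAs were named after their values were seen. Promoters come from RefSeq (GRCm38.p6).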

Additional observations from a re-analysis of the deposited data

Results flagged for a closer look

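In 42 groups of 4 to 6 libraries tested for a library far from the others by Dixon's ratio at the 95% level, 2 were found, where chance gives about 1 in 20. B2m in library 69 of B10.D2 SNI was at 250.5 CPM, with the next library of the group at 167.8 CPM. The same library was the highest of all for 8 other members. Tapbp in library 77 of B10.D2 sham was at 79.3 CPM, with the next library at 89.3 CPM. No cause was tested for either.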

How the results depend on the processing

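B2m was called higher in B10.D2 in all 29 alternatives in sham and all 28 in SNI. The 6 members called in sham became 1 with females only and 10 with sham and SNI averaged, and the 9 in SNI became 1 with females only. Leaving out single libraries gave 5 to 7 in sham and 5 to 10 in SNI. For injury, the count was 0 in each strain, and 4 in 1 contrast that averaged the SNI effect over the strains (added after seeing the data). In the B10.D2 comparison it became 2 without a filter on low counts and 2 by DESeq2. Leaving out single libraries gave 0 to 2 in B10.D2 and 0 in BALB/c. Interaction and sex gave 0 members throughout.

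Of 1700 recomputed member differences, 34 changed sign, all from small estimates that were not called. In BALB/c SNI against sham these were Tap2 (-0.058 with females only, -0.09 to 0.135 leaving out single libraries), Psmb8 (-0.024 with females only) and Tapbp (0.038 with males only, 0.003 averaged over the strains). Leaving out single libraries, the interaction ran from -0.076 to 0.106 for H2-K1, -0.137 to 0.026 for H2-D1 (0.055 with females only), -0.038 to 0.277 for H2-T23 and -0.019 to 0.182 for B2m. Tapbp was -0.04 between strains in sham with females only, and -0.031 to 0.02 between sexes. In these alternatives the cause was not tested.

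In rat, B2m stayed between -0.192 and -0.048 leaving out single libraries. With the replicate block by run number it was -0.140 (edgeR adjusted p = 0.487), and the calls over all features fell from 3753 to 2558. Same-numbered rat libraries had correlations of deviations of 0.05, -0.29, -0.11 and -0.09, and none of the 8 libraries correlated best with its own number. The number comes from a run label in the titles that both groups share, and the labels do not say what it marks. Mouse numbers name single animals and pair none. Depth limits mainly the nearby LncRNAs, at 2 to 56 counts.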

Other observations

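Single sexes gave the following values for the strain difference in sham. H2-K1 was 0.63 on the log2 scale with males alone (edgeR adjusted p = 0.000482) and 0.48 with females alone (adjusted p = 0.172). Whether the strain difference differed between the sexes was not tested.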
